A study of Mus musculus with 6 samples.

Results

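The genes of the ATP-binding cassette (ABC) family were compared between tumor-bearing colons of mice given RG@M-γ-CD and of mice given PBS. Members were the gene probes whose name in the scanner output begins with Abca, Abcb, Abcc, Abcd, Abce, Abcf or Abcg and a digit. The cholesterol transporters Abca1, Abcg1, Abcg5 and Abcg8 were not included. In all, 46 of the 37074 gene names on the array met this rule, with 106 probes between them. Of these genes, 34 had a probe well above background in every array of one group or of both and were tested, and 12 had none.

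ABC proteins bind and hydrolyse ATP, and most of them use the energy to move a substrate across a membrane. Subfamily A moves mainly lipids. Subfamily B holds P-glycoprotein, the bile phospholipid transporter and carriers of mitochondria and lysosomes, and subfamily C holds the multidrug resistance proteins, which export drugs and conjugated compounds, together with the receptors of sulfonylurea drugs. Subfamily D carries fatty acids into peroxisomes and cobalamin out of lysosomes. Members of E and F lack membrane domains and act on ribosomes and translation, and G holds half-transporters such as the breast cancer resistance protein. In the gut, P-glycoprotein and the breast cancer resistance protein sit in the luminal membrane of epithelial cells and pump drugs back into the lumen, and regorafenib is known as a substrate of both.

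RG@M-γ-CD is a complex of regorafenib (RG), an inhibitor of several kinases, held in γ-cyclodextrin carrying mannose. All 6 animals were male C57BL/6 mice, aged 6 to 8 weeks at the start, in which colon tumors were induced with AOM (10 μg/g), a carcinogen, and with the colitis agent DSS given at 2% in drinking water. Arrays 5, 6 and 7 came from the 3 mice given the complex by mouth (30 μg/g, equal to 10 μg/g RG) and arrays 8, 10 and 11 from the 3 given PBS, with 1 one-color array per mouse, and colon tissue was taken when 21 treatment days and a further 14 days had passed. The tissue was colon with its tumors, not sorted cells, so that fewer cells of a type and less RNA per cell cannot be told apart. All 6 epithelial markers and all 8 colonocyte markers searched were tested. Passing the filter does not by itself set colon apart from other tissue, as 3 of 5 hepatocyte markers passed it too.

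Values are log2 intensities minus the 75th percentile over all gene probes of that array. A value of 0 is therefore the level of that percentile, a difference of 1 is a 2-fold difference, and values of different genes cannot be compared because each probe binds with its own strength. The share of gene probes well above background was 49.6% to 55.2% by array, and 51 to 58 of the 106 ABC probes were among them. Across 15 lists of cell type markers, 78 markers were tested and 3 had an unadjusted p below 0.05 in limma, beside 419 of 19090 genes. These were the T cell gene Cd3g, the squamous keratin gene Krt6a and the pancreatic trypsinogen gene Prss2, all lower in RG@M-γ-CD. Prss2 read -6.93, -6.44 and -6.54 there, as low as ABC probes above background on no array. It could thus enter the test only through PBS, where it is higher. In the same lists, Krtdap (0.45) and the pancreatic Cela1 (0.17) were higher in mean in RG@M-γ-CD.

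Probes are 60 bases long, and the first 30 bases of those on which the results below turn are shown here, since it is these sequences that were measured. They are written 5′ to 3′ as the scanner output lists them, with the mm9 position of the printed bases. Exon and untranslated region were not assigned for lack of an mm9 annotation here. Abca5 is shown as the gene whose groups did not overlap. Its probe lies at chr11:110130993-110131022, minus strand.
Abca5: cgtttcacatttgttacaatgccatcttac
Abcb1a, Abcb1b and Abcb4 are shown as neighbouring genes with a common pattern, at chr5:8748075-8748104, chr5:8865925-8865954 and chr5:8959108-8959137, all plus strand.
Abcb1a: actcagacatgggcacctgagttcagatcc
Abcb1b: tccaggctggagcaaagcgctcatgagctg
Abcb4: agctgctggcgcagaagggcatctatttct
Abcc9 is shown as the gene that passed the adjusted threshold with RG@M-γ-CD replicate 1 left out, at chr6:142536950-142536979, minus strand.
Abcc9: attgcgttgcttgggctacctccgatgaca
Abcg4 is shown for its disagreeing probes, at chr9:44087892-44087921 for the brighter and chr9:44081332-44081361 for the dimmer, both minus strand.
Abcg4 brighter probe: tgtcccctcttcccagatgactcaagtttg
Abcg4 dimmer probe: tgtatctgccccaggttcttctcattacac
Over the whole 60 bases, the longest run of identical bases shared by the probes of any pair of the 32 tested genes described here was 10, between Abcb8 and Abcc8 and between Abcc5 and Abcc8. For the close paralogs Abcb1a and Abcb1b the probes start at bases 4481 and 3954 of their transcripts. A short common run between such probes does not show that each reads 1 gene only. The match of a probe to the transcript of another member was not tested.

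No ABC gene passed the test between the groups after adjustment. At an adjusted p of 0.05 limma called 0 of the 34, and the background was 0 of 19090 genes (0%). At an unadjusted p below 0.05, 1 ABC gene was higher in RG@M-γ-CD, where 165 of all genes (0.864%) were, and 0 were lower, where 254 of all genes (1.33%) were. All RG@M-γ-CD arrays lay above all PBS arrays for 1 ABC gene against 2.38% of all genes, and below them for 0 against 2.19%. Counts of 1 and 0 among 34 genes are no result about the family. The mean was higher in RG@M-γ-CD for 16 and lower for 18 of the 34 genes, and higher for 47.2% of all genes tested. The median log2 change of the ABC genes was -0.04, beside -0.01 over all genes. No ABC gene reached a 2-fold difference of means, and changes ran from -0.69 in Abcc12 to 0.90 in Abca5. All 34 had an adjusted p of 0.99998 in limma.

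**Figure D1:**
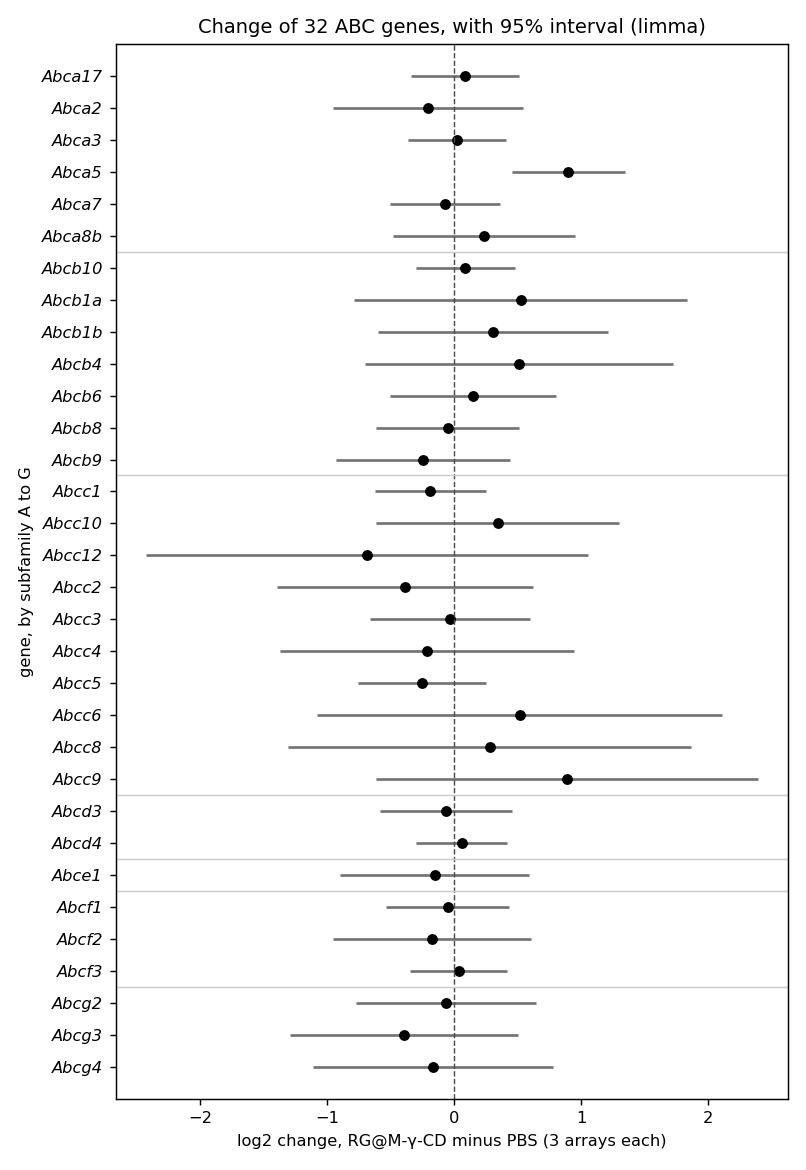
Log2 change of 32 tested ABC genes (points; RG@M-γ-CD minus PBS, 3 arrays each) with its 95% interval from limma (lines), by subfamily from A at the top to G at the bottom. The interval of Abca5 alone lies off 0, and the widest intervals belong to subfamily C.

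In subfamily A, which transports lipids, 6 of 15 genes on the array were tested, and 4 were higher and 2 lower in mean in RG@M-γ-CD (median change 0.06). Abca5, a protein of lysosomes and late endosomes, was the only ABC gene with groups apart. It stood at -2.74, -2.69 and -2.29 in RG@M-γ-CD replicates 1 to 3 and at -3.41, -3.62 and -3.38 in PBS replicates 1 to 3. All RG@M-γ-CD arrays were above all PBS arrays, by 0.64 at the closest. The mean was 1.86-fold higher (log2 change 0.90 ± 0.18 SE, 95% interval 0.46 to 1.34), with an unadjusted p of 0.00226 and an adjusted p of 0.99998 in limma. Leaving out any single array kept the change between 0.76 and 0.98. With normexp background correction it was 0.32, with an unadjusted p of 0.0697 in limma. The probe starts at base 7929 of its transcript as the files list it, and the other Abca5 probes, at other places, were not well above background on any array.

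The other members of subfamily A had no such split. Abca2, a lysosomal lipid transporter with the lowest change of the subfamily, stood at -1.10, -2.31 and -1.56 in RG@M-γ-CD and at -1.48, -1.54 and -1.34 in PBS. RG@M-γ-CD replicates 1 and 2 were the highest and the lowest of its 6 values, so that the mean difference of -0.20 ± 0.31 (SE) was within the spread of the treated arrays. Abca3, which loads phospholipid into lamellar bodies, and Abca7, a phospholipid exporter linked to phagocytosis, differed by 0.03 and -0.07 on the log2 scale, and Abca17 by 0.09. Abca8b, a relative of Abca5 in the same chromosomal cluster, was higher in mean by 0.24 by its brightest probe and by 0.50 by its other probe past the filter. On that other probe the arrays read -2.55, -2.65 and -2.69 in RG@M-γ-CD and -3.33, -2.83 and -3.25 in PBS, which do not overlap, whereas on the brightest probe they did. The change on the brightest probe turned to -0.07 without RG@M-γ-CD replicate 1, and between the sides of the study's heat map, described below, it was -0.51. In the reference gene order (GRCm38.p6), Abca8b, Abca8a, Abca9, Abca6 and Abca5 follow each other on chromosome 11. Of the middle genes none was tested: Abca8a was well above background on 2 RG@M-γ-CD and 0 PBS arrays, Abca9 on 1 and 2, and Abca6 on 1 and 0. Abca8a, by its brighter probe, read -6.24, -2.43 and -3.32 in RG@M-γ-CD and -5.33, -4.51 and -4.73 in PBS. RG@M-γ-CD replicates 2 and 3, the arrays above background, lay above the other 4, whose values have no order.

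The remaining untested genes of subfamily A were Abca12, Abca14, Abca15 and Abca16, above background on 0 arrays, Abca13, on 1 RG@M-γ-CD and 2 PBS arrays, and the photoreceptor lipid flippase gene Abca4, on 0 and 2. Abca12 is known as the lipid transporter of keratinocytes, and Abca14 to Abca16 are neighbours on chromosome 7. Outside subfamily A, 3 further members were above background on 0 arrays: Abcb11, the bile salt export pump of the liver, Abcb5 and Abcd2.

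The drug efflux genes are described as one group across subfamilies. They are a chosen list of members known to carry drugs out of a cell, and other members may do so too. None of the 8 (Abcb1a, Abcb1b, Abcg2 and Abcc1 to Abcc5) passed the test, with unadjusted p values of at least 0.274 in limma. Abcb1a encodes the main P-glycoprotein of the mouse intestine and stood at 1.71, 3.56 and 3.58 in RG@M-γ-CD and at 2.13, 2.92 and 2.22 in PBS. RG@M-γ-CD replicate 1 gave the lowest and replicates 2 and 3 the highest of the 6 values. The difference of means was 0.52 ± 0.54 (SE), with a 95% interval from -0.79 to 1.83. Abcb1b, the second P-glycoprotein gene of the mouse, read -0.85, 0.20 and 0.36 in RG@M-γ-CD and -0.81, 0.01 and -0.42 in PBS, a difference of 0.31 ± 0.38 (SE). Its arrays stood in the same order as those of Abcb1a, but RG@M-γ-CD replicate 1 lay only just below PBS replicate 1. Abcg2, the breast cancer resistance protein, read 2.27, 2.68 and 3.19 in RG@M-γ-CD and 2.38, 3.03 and 2.92 in PBS. Its groups overlapped almost entirely, with a difference of -0.06 ± 0.30 (SE) and a 95% interval from -0.77 to 0.65.

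**Figure D2:**
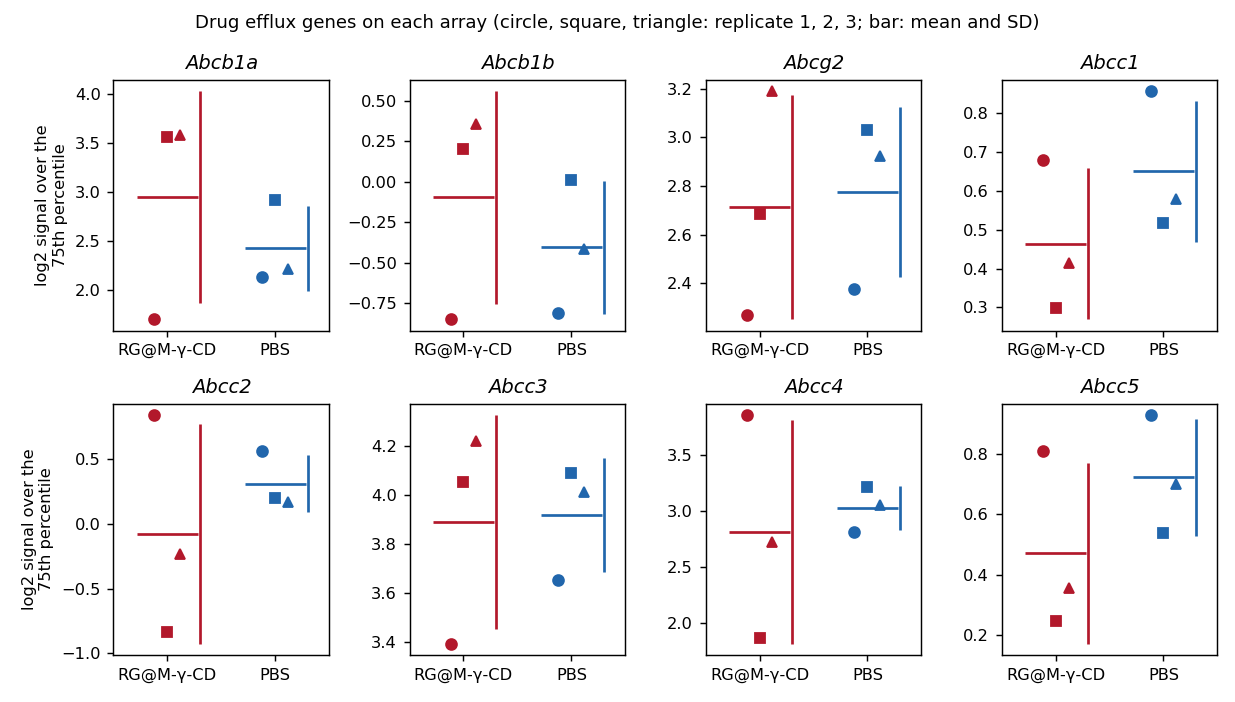
Log2 signal relative to the 75th percentile of each array for the 8 drug efflux genes, with 1 point per array and the mean and SD of each group (n = 3). The groups overlap in all panels, and RG@M-γ-CD replicate 1 (red circle) is the lowest treated array for Abcb1a, Abcb1b, Abcg2 and Abcc3 and the highest for Abcc1, Abcc2, Abcc4 and Abcc5.

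Among the multidrug resistance proteins of subfamily C, RG@M-γ-CD replicate 1 was the highest treated array for Abcc1, Abcc2, Abcc4 and Abcc5 and the lowest for Abcc3. Abcc2 exports conjugates through the luminal membrane. It read 0.83, -0.83 and -0.24 in RG@M-γ-CD and 0.56, 0.20 and 0.17 in PBS, so that replicates 2 and 3 of RG@M-γ-CD lay below all PBS arrays and replicate 1 above them. Abcc4, which exports cyclic nucleotides and prostaglandins, stood at 3.86, 1.86 and 2.72 in RG@M-γ-CD and at 2.82, 3.21 and 3.06 in PBS. Its treated arrays spanned 1.99 on the log2 scale, with the PBS arrays between the extremes, and the change was -0.21 ± 0.48 (SE). Abcc3, the basolateral exporter of bile acids and glucuronides, read 3.39, 4.05 and 4.22 in RG@M-γ-CD and 3.65, 4.09 and 4.01 in PBS, a difference of means of -0.03. Both of its probes gave nearly the same change. Abcc1 stood at 0.68, 0.30 and 0.41 in RG@M-γ-CD and at 0.86, 0.52 and 0.58 in PBS. Abcc5, an exporter of nucleotide analogs, read 0.81, 0.25 and 0.36 in RG@M-γ-CD and 0.93, 0.54 and 0.70 in PBS. Both were somewhat lower in mean (-0.19 ± 0.18 and -0.25 ± 0.21, SE), and in both RG@M-γ-CD replicate 1 lay among the PBS arrays. The other Abcc1 probe past the filter went the other way (0.07), and so did 2 of the 5 other Abcc5 probes (0.02 and 0.09).

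Subfamily B as a whole had 8 of 10 genes tested, with 5 higher and 3 lower in mean and a median change of 0.12. Abcb4, the phosphatidylcholine transporter of the bile canaliculus, lies next to Abcb1a and Abcb1b on chromosome 5. Its arrays read 1.12, 2.69 and 2.78 in RG@M-γ-CD and 1.27, 2.28 and 1.53 in PBS. In all 3 neighbours the arrays stood in one order, from RG@M-γ-CD replicate 1 through PBS replicates 1, 3 and 2 to RG@M-γ-CD replicates 2 and 3. This order was found in 108 of the 19087 genes with a value on every array (0.566%), among them Cftr, an ABC protein that forms the chloride channel of the epithelium, and in no ABC gene of the rule beyond these 3. Cftr read 2.28, 3.88 and 3.92 in RG@M-γ-CD and 2.66, 3.46 and 3.23 in PBS. The median of the 8 colonocyte markers, taken relative to each marker's mean, was -1.90, 0.59 and 0.96 in RG@M-γ-CD and -0.47, 0.24 and 0.28 in PBS. This median thus followed nearly the same order, and 3 of the 8 markers were higher and 5 lower in mean in RG@M-γ-CD. Not every colonocyte marker did so, as Vil1, Krt20 and Car1 were lowest in PBS replicate 1. Vil1 read 5.54, 5.28 and 5.55 in RG@M-γ-CD and 5.03, 5.58 and 5.56 in PBS. The part of colonocytes in the values of Abcb1a, Abcb1b and Abcb4 was not tested.

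**Figure D3:**
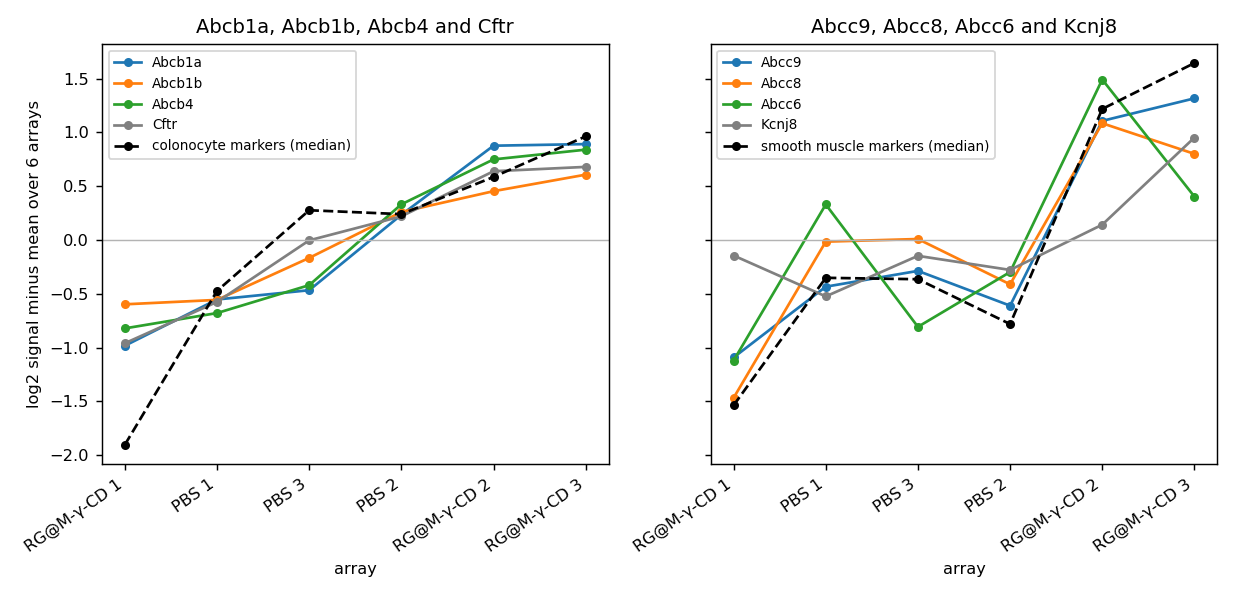
Log2 signal on each array relative to the mean over the 6 arrays, with arrays in the order found for Abcb1a, for chromosome 5 neighbours and Cftr beside the median of colonocyte markers (left) and for Abcc9, Abcc8, Abcc6 and Kcnj8 beside the median of smooth muscle markers (right). RG@M-γ-CD replicate 1 lies at the low end for all genes but Kcnj8, and RG@M-γ-CD replicates 2 and 3 at the high end.

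As these neighbours share one order of arrays, the 250 bases before each start site are given from RefSeq (GRCm38.p6, a different build from that of the probes): chr5:8566841-8567090 for Abcb1a, chr5:8797897-8798146 for Abcb1b and chr5:8893471-8893720 for Abcb4, all plus strand. Capitals mark matches, on either strand, to GGGCGG (the GC box), CCAAT (the CCAAT box) and TATAAA (the TATA box), which do not overlap each other here.
Abcb1a: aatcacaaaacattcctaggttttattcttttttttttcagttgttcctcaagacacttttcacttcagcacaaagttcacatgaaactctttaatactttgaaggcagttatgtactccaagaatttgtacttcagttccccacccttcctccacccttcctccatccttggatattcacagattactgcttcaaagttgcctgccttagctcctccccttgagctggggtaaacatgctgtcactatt
Abcb1b: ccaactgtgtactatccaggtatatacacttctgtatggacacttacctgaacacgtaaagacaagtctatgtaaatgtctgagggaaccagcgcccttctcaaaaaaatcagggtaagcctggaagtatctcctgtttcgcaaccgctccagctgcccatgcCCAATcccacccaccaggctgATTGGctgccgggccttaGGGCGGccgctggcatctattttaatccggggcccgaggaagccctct
Abcb4: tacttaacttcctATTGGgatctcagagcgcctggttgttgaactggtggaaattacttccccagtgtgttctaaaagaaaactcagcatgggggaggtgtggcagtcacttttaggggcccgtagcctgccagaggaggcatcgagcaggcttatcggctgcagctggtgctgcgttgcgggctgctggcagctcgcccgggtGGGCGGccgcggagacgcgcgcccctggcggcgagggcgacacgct
Abcb1b held 1 GC box and 2 CCAAT boxes, Abcb4 held 1 of each, and the window of Abcb1a held no match to any of these letters. GC content was 40.4% in Abcb1a, 52.8% in Abcb1b and 61.6% in Abcb4. Among all 32851 promoter windows of the table, 32.7% held a GC box, 33.8% a CCAAT box and 12.4% a TATA box. Of the 46 ABC genes, 35 had an entry, with 41 windows in all, of which 46.3% held a GC box, 29.3% a CCAAT box and 4.88% a TATA box.

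Differences were small in the organelle members of subfamily B. Abcb6, Abcb8 and Abcb10, of mitochondria, had differences of 0.15, -0.05 and 0.09, and Abcb9, a peptide transporter of lysosomes, one of -0.25.

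Subfamily C was the most variable. All 10 of its genes were tested, 4 were higher and 6 lower in mean, and the median change was -0.11. The values of 7 of the 10 spanned at least 1 on the log2 scale over the 6 arrays, as in 32.1% of all genes, and 4 spanned at least 2, as in 9.57%. Abcc9, the sulfonylurea receptor of potassium channels in smooth muscle, had the largest positive difference of the subfamily. It stood at -0.33, 1.87 and 2.08 in RG@M-γ-CD and at 0.33, 0.15 and 0.48 in PBS. RG@M-γ-CD replicates 2 and 3 were far above all PBS arrays and replicate 1 was below them, so that the change was 0.89 ± 0.62 (SE) with an unadjusted p of 0.202 in limma. Kcnj8, the channel pore that pairs with Abcc9 and its neighbour on chromosome 6, read 1.78, 2.07 and 2.88 in RG@M-γ-CD and 1.40, 1.65 and 1.78 in PBS. The groups of Kcnj8 did not overlap, though only barely, with a change of 0.63 ± 0.30 (SE) and an unadjusted p of 0.0789 in limma. All 7 smooth muscle markers were higher in mean in RG@M-γ-CD, 0 of them at an unadjusted p below 0.05. Their median relative to each marker's mean was -1.54, 1.22 and 1.64 in RG@M-γ-CD and between -0.78 and -0.35 in PBS, which is the split seen for Abcc9. Their part in the value of Abcc9 was not tested.

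Abcc8 and Abcc6 were split in the same sense. Abcc8, the sulfonylurea receptor of endocrine cells and neurons, read -3.45, -0.90 and -1.19 in RG@M-γ-CD and -2.003, -2.40 and -1.98 in PBS. Its usual pore Kcnj11 was not tested. Abcc6, known from the mineralization disorder pseudoxanthoma elasticum, stood at -2.49, 0.12 and -0.97 in RG@M-γ-CD and at -1.04, -1.67 and -2.18 in PBS, and its other probe placed the 6 arrays in the same order. The median of the enteric neuron and glia markers followed this split as well, at -1.40, 1.38 and 1.12 in RG@M-γ-CD and between -0.34 and -0.10 in PBS. All 5 markers were higher in mean. Uchl1 read 1.27, 2.37 and 2.96 in RG@M-γ-CD and 1.25, 0.99 and 2.23 in PBS, so that RG@M-γ-CD replicate 1 was not its lowest array. The part of enteric neurons and glia in the values of Abcc8 was not tested. Abcc10 read 0.58, 2.20 and 1.33 in RG@M-γ-CD and 1.18, 1.03 and 0.87 in PBS.

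Abcc12 had the widest spread of the 34 genes (SD over the 6 arrays 1.06) and the lowest change. It read -4.04, -3.23 and -3.72 in RG@M-γ-CD and -1.26, -4.06 and -3.62 in PBS. PBS replicate 1 stood alone, 1.97 above the next value, and PBS replicate 2 was not well above background. Both other Abcc12 probes of this region also had their highest value in PBS replicate 1 (-1.86 and -3.43), with all other arrays at -4.22 or below on the one and at -5.50 or below on the other. The change was -0.69 ± 0.72 (SE) over all arrays and 0.17 without PBS replicate 1. Slide row 1 held all RG@M-γ-CD arrays and PBS replicate 1, and row 2 the rest, so that a fit with slide row as a block sets the treated arrays against PBS replicate 1 only. There Abcc12 differed by -2.41 and 2 ABC genes had an unadjusted p below 0.05, beside 2.93% of all genes.

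In subfamily D differences were small. Abcd3, which carries branched fatty acids and bile acid precursors into peroxisomes, read 4.84, 4.25 and 4.74 in RG@M-γ-CD and 4.45, 4.82 and 4.75 in PBS. Its groups overlapped, with a difference of -0.06 ± 0.22 (SE). Abcd4, the lysosomal partner in cobalamin release, was the steadiest ABC gene, with an SD of 0.098 over the 6 arrays and a change of 0.06.

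Abce1, the only member of subfamily E, splits ribosomes after translation. It stood at 3.77, 2.74 and 3.47 in RG@M-γ-CD and at 3.22, 3.39 and 3.83 in PBS, with RG@M-γ-CD replicate 2 lowest and a change of -0.15 ± 0.31 (SE). All 3 genes of subfamily F were tested, and 1 was higher and 2 lower. Abcf2 read 1.39, 0.15 and 0.97 in RG@M-γ-CD and 1.04, 0.85 and 1.14 in PBS, again with RG@M-γ-CD replicate 2 lowest. Abcf3 read 2.31, 1.99 and 2.08 in RG@M-γ-CD and 1.98, 2.15 and 2.15 in PBS, a change of 0.04. Abcf1, which binds the initiation factor eIF2, differed by -0.05, and the difference lay within 0.05 of no change on each of its 5 probes past the filter.

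Besides Abcg2, subfamily G held Abcg3 and Abcg4. Abcg3, a rodent relative of Abcg2, read -3.94, -3.48 and -4.40 in RG@M-γ-CD and -2.90, -3.61 and -4.12 in PBS, with a difference of means of -0.39 ± 0.37 (SE). It was well above background on 3 PBS but only 2 RG@M-γ-CD arrays and so was tested through the group where it is higher. Abcg4, a sterol exporter of neurons, read -2.46, -1.07 and -2.005 in RG@M-γ-CD and -1.22, -1.98 and -1.84 in PBS on its brighter probe. On its dimmer probe it read -3.70, -2.13 and -2.07 in RG@M-γ-CD and -3.48, -3.94 and -3.05 in PBS. The changes were -0.17 and 0.86, which is the largest gap between probes of one ABC gene. Of the 19 other probes of 11 genes that passed the filter, 11 had the sign of the brightest probe and 8 the opposite one. Outside Abcg4 the probes of a gene differed by at most 0.34 in their change.

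ABC genes varied more among the treated arrays than among the PBS arrays, a difference in spread for which no test was made. The SD was larger in RG@M-γ-CD than in PBS for 30 of the 34 ABC genes (88.2%), and for 66.2% of all genes tested. The median SD of the ABC genes was 0.43 among treated arrays and 0.21 among PBS arrays, against 0.30 and 0.21 for all genes. RG@M-γ-CD replicate 1 gave the lowest value for 12 of the 34 genes (35.3%, beside 18.8% of all genes). RG@M-γ-CD replicate 2 did so for 13 (38.2%, beside 36.7%). RG@M-γ-CD replicate 3 gave the highest value for 10 genes (29.4%, beside 12.4%) and replicate 1 for 9 (26.5%, beside 28.9%). Lowest in replicate 2 and highest in replicate 1 were thus near the shares over all genes. Some markers of tissue also differed among these arrays. The median of the neutrophil markers stood at 1.62, -2.26 and -1.75 in RG@M-γ-CD and between 0.05 and 1.11 in PBS, again relative to each marker's mean. Within that list Csf3r read 5.02, 6.25 and 5.30 in RG@M-γ-CD and so was not split this way. The medians of epithelial markers (0.04, -0.20 and 0.13) and endothelial markers (-0.02, 0.45 and -0.02) were not either. The part of such cells in the ABC values was not tested.

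**Figure D4:**
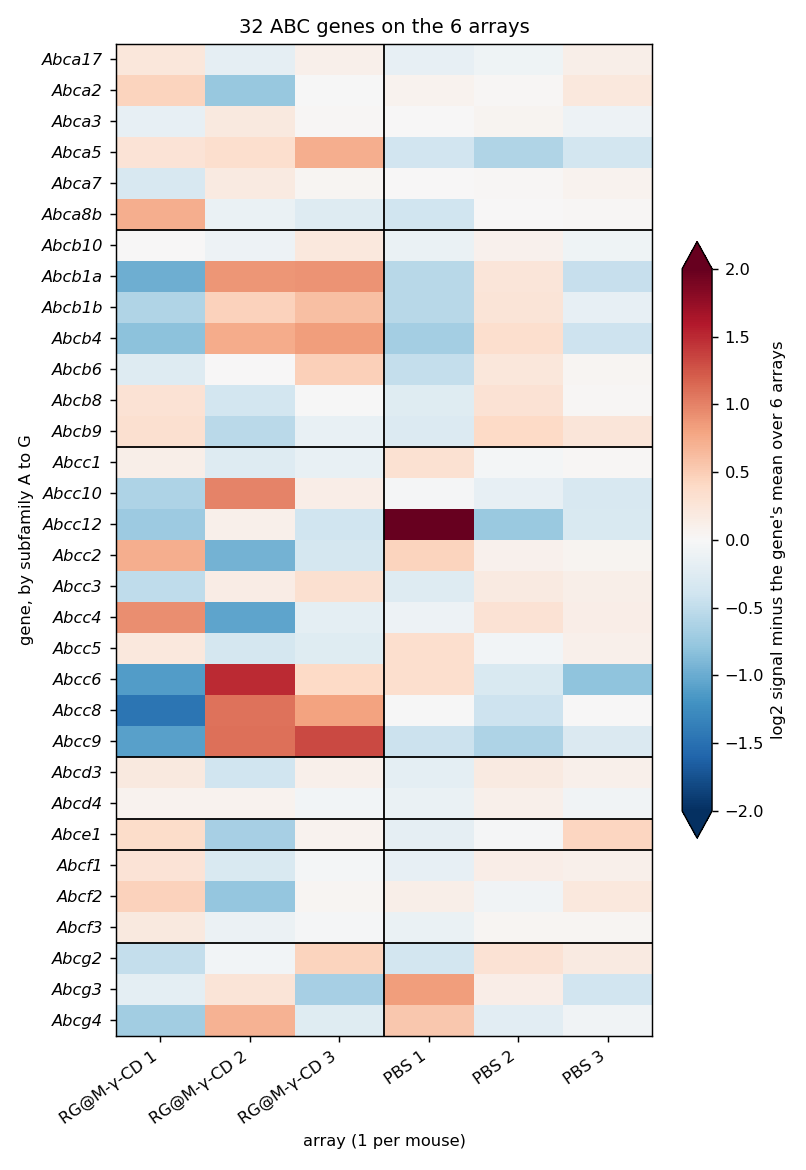
Log2 signal of 32 tested ABC genes on each array relative to the gene's mean over the 6 arrays (color scale, -2 to 2), by subfamily. RG@M-γ-CD replicates 1 and 2 have opposite colors in many genes, Abcc9, Abcc8 and Abcc6 most of all, Abca5 is split by group, and Abcc12 stands out on PBS replicate 1.

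RG@M-γ-CD replicate 1 decided whether a call was made. Without it, 35 ABC genes were tested. In limma 1 of them passed the adjusted threshold of 0.05, beside 202 of 19466 genes (1.04%). That gene was Abcc9, which rose by 1.66 ± 0.19 (SE) on the log2 scale, or 3.15-fold (adjusted p = 0.0305, limma). At an unadjusted p below 0.05 there were 11 ABC genes, beside 12.5% of all genes. Abca5, Abcb1a, Abcb1b, Abcb4, Abcc6, Abcc8, Abcc9 and Abcc10 were higher and Abcc2 and Abcc4 lower. Abca8a is the other gene of this count, and it entered the fit only through the remaining treated arrays, where it is high, so its place in the count was given by the filter. Abcb1a was then 2.21-fold and Abcb4 2.07-fold higher, with adjusted p values of 0.150 and 0.238 in limma. With 2 arrays against 3, the groups did not overlap for 14 ABC genes, beside 25.9% of all genes. Leaving out any other array gave 0 ABC genes past the adjusted threshold, beside 0 of all genes. It gave at most 2 ABC genes at an unadjusted p below 0.05, beside 241 to 532 of all genes.

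**Figure D5:**
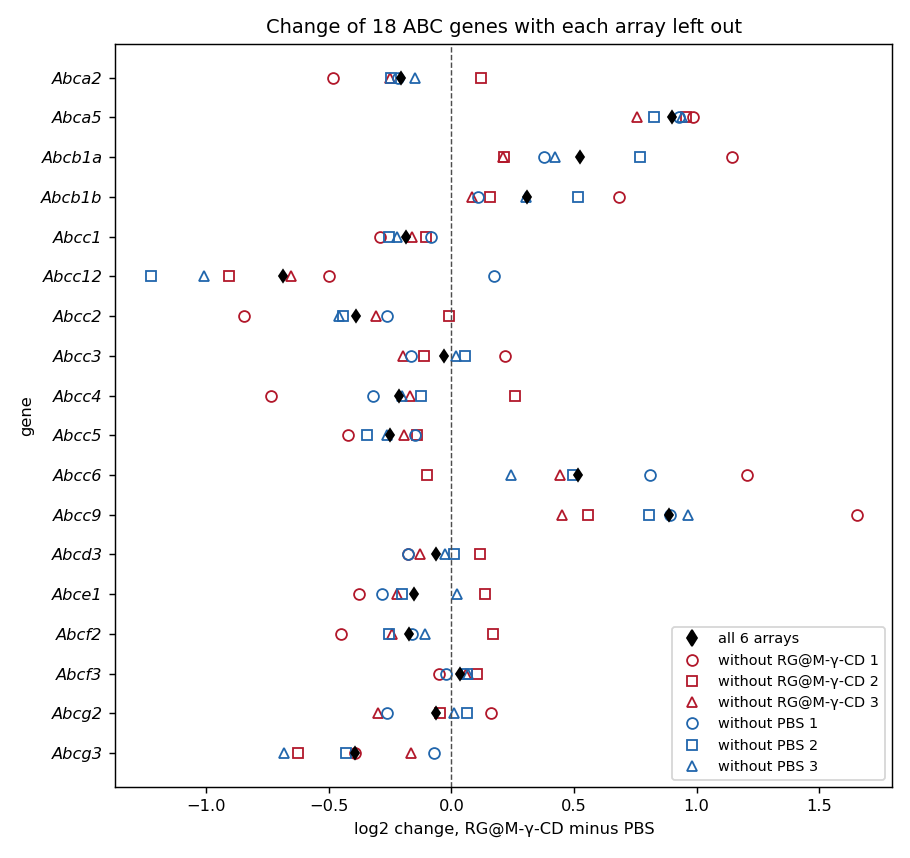
Log2 change (RG@M-γ-CD minus PBS) of 18 ABC genes with all 6 arrays (black diamonds) and with each array left out (open symbols). Leaving out RG@M-γ-CD replicate 1 (red circles) moves Abcc9 from 0.89 to 1.66 and Abcb1a from 0.52 to 1.15, while the symbols of Abca5 stay between 0.76 and 0.98.

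A heat map of the study sets arrays 6, 7 and 8 beside each other and apart from arrays 5, 10 and 11. By the labels the first side holds RG@M-γ-CD replicates 2 and 3 and PBS replicate 1, and the second holds RG@M-γ-CD replicate 1 and PBS replicates 2 and 3. Between these sides, neither of which is named here as treated, limma gave an adjusted p below 0.05 to 0 of 34 ABC genes, beside 5 of 19298 genes (0.0259%). At an unadjusted p below 0.05 there were 8, beside 16.5% of all genes, and for 9 the sides did not overlap, beside 25.5%. Abcc6, Abcc9, Abcc8 and Abcc10 were higher on the side of arrays 6, 7 and 8, by 1.48, 1.33, 1.25 and 0.74. Abcc4, Abcb9, Abcb8 and Abcf1 were lower there, by values from -0.91 to -0.33. Abca5 differed by 0.45 between these sides.

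Genes that work with ABC proteins were counted in 8 lists with 65 genes, of which 62 were tested. None passed the adjusted threshold, and 0 had an unadjusted p below 0.05 in limma in either direction. Among ABC proteins named otherwise, the peptide transporters Tap1 and Tap2 differed by -0.47 and -0.10 and Cftr by 0.24. Of the 7 partners in peptide loading, 1 was higher and 6 lower in mean (median -0.16), and of the 8 genes of ribosome recycling and the Gcn2 pathway 1 was higher and 7 lower (median -0.12). Peroxisomal partners were 4 and 4 (median 0.01), and partners in heme and iron-sulfur clusters 5 and 5 (median -0.01). Of the 13 regulators of ABC genes 8 were higher and 5 lower (median 0.12). They include the xenobiotic receptor Nr1i2, which drives Abcb1a and which differed by 0.27 with groups that overlapped. Carriers of bile acids and organic ions had 7 higher and 5 lower of 12 tested (median 0.07), and Kcnj8 was the one tested pore of the ATP-sensitive channels.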

How the data were processed

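RNA of colon tissue with tumors was labeled with Cy3 and hybridized to Agilent SurePrint G3 mouse arrays, 1 per animal. The authors deposited, per array, spot intensities from Agilent Feature Extraction 10.7.1.1, background-corrected per spot and not scaled from array to array. They also deposited log2 values per probe, whose normalization method is not given in the sources used here. The fit on them gave nearly the same changes as quantile normalization, another alternative below (Abca5 0.91 in both). These 2 alternatives are therefore not independent of each other. Members and gene lists were chosen with earlier results of these data known.

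The software was R 4.3.3, with data.table (version 1.17.8) for reading. Controls and outlier spots were dropped (0 of the outliers were ABC spots), and 0 gene spots were saturated. Spots of a probe were averaged after log2, and the 75th percentile of the gene probes was subtracted per array. A probe was kept if it was well above background throughout a group, and each gene took its brightest probe. Groups were compared with limma 3.58.1 (lmFit, eBayes) over 19090 genes with Benjamini-Hochberg adjustment at 0.05. This fit had been tested on simulated data. For 3 arrays a group an exact permutation test cannot go below 0.1, and the number of arrays limits the precision. An array percentile and the probe filter can shift a change, so the alternatives were quantile normalization, normexp with an offset of 50, the deposited log2 values, a filter on all 6 arrays or none, all probes of a gene averaged, outliers kept, a replicate block, the methods' t-test, the sides of the study's heat map, each array left out and, added after seeing the data, slide row as a block. P values measure the spread between mice of 1 experiment.

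Values on each array are given for the drug efflux genes, Abce1, the largest rise and fall in mean of each other subfamily, the 3 genes with the widest spread, and any gene with an unadjusted p below 0.05 or groups apart. Abcb4, Abcc8, Abcc10, Abca8a, Abca8b, Abcg4, Cftr, Kcnj8, Tap1, Tap2 and Nr1i2 were added after their values were seen. Of the 34 tested genes, 2 are counted but not reported here one by one. Promoter windows came from RefSeq.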

Additional observations from a re-analysis of the deposited data

How the results depend on the processing

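Of 386 values recomputed under the alternatives, 343 were classed as unchanged. In 27, all changes of single genes, the sign turned, 15 moved and 1 became stronger. A median or a count could shift and still be classed as unchanged. The median change was 0.0076 with a gene's probes averaged, 0.038 without RG@M-γ-CD replicate 1 and 0.014 without PBS replicate 3. Over all genes these medians were -0.014, -0.032 and 0.0069. With slide row as a block 22 of 34 ABC genes were higher, beside 12122 of 19090 genes. The count of ABC genes past the adjusted threshold was 0 with every alternative except leaving out 1 array, where it ranged from 0 to 1. Leaving out each array gave 1 to 11 ABC genes at an unadjusted p below 0.05, 1 to 14 without overlap and a median change from -0.058 to 0.10. Over all genes the ranges were 241 to 2428 at that p, 1442 to 5047 without overlap and -0.061 to 0.049 for the median. Leaving out RG@M-γ-CD replicate 1 gave the highest of these counts, for a cause that was not tested. The count at an unadjusted p below 0.05 was 0 with normexp correction, 8 between the sides of the heat map and 2 with slide row as a block. Over all genes the count at that p was 321 of 19090 with normexp correction and 16.5% between the sides of the heat map. ABC genes without overlap numbered 2 of 46 with no filter on dim probes, beside 1413 of 37325 genes. They numbered 9 between the sides of the heat map, beside 25.5% of all genes. The median change was 0.15 with slide row as a block, beside 0.097 over all genes. The replicate numbers did not pair the arrays (correlations of same-numbered arrays -0.25, -0.23 and 0.14). With the replicate block 0 ABC genes passed the adjusted threshold and 1 had an unadjusted p below 0.05, beside 0 and 464 of 19090 genes. There 16 ABC genes were higher and 1 was without overlap, beside 9004 and 872 of all genes. The median change was -0.04, beside -0.01. The methods' t-test gave 0 ABC genes after adjustment, beside 0 of 19090 genes. At a fold change of 2 with p of 0.05 it gave 0 ABC genes, beside 45 of 19090 genes.

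Changes of several genes turned their sign, among them the lowest of all, that of Abcc12. Between the sides of the heat map Abcc12 was at 1.17, Abcc3 at 0.14, Abcf3 at -0.18, Abcg2 at 0.0098 and Abcg3 at 0.30. With slide row as a block Abcc3 was at 0.24, Abcc6 at -0.072, Abcd3 at 0.16, Abce1 at 0.10 and Abcg2 at 0.34. With each array left out, the change ranged from -0.48 to 0.12 for Abca2, -0.20 to 0.22 for Abcc3, -0.73 to 0.26 for Abcc4, -0.10 to 1.21 for Abcc6, -1.23 to 0.17 for Abcc12, -0.18 to 0.12 for Abcd3, -0.38 to 0.14 for Abce1, -0.45 to 0.17 for Abcf2, -0.052 to 0.10 for Abcf3 and -0.30 to 0.16 for Abcg2. None of these genes passed the adjusted threshold in any of these fits. The 12 genes without a probe above background throughout a group were not tested in the main fit. With no filter on dim probes all 46 genes were in the fit, and 0 passed the adjusted threshold, beside 0 of 37325 genes.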
